A study of Mus musculus with 84 samples.

Results

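The last dose step of BI 456906 in the liver was examined here, as the contrast between mice dosed with 30 nmol/kg and mice dosed with 20 nmol/kg. The contrast rests on 12 of the 84 libraries of the series, and on 12 of its 42 liver libraries: 6 at 20 nmol/kg (libraries 61 to 66) and 6 at 30 nmol/kg (libraries 67 to 72), assigned by the library number in each sample title. Each library came from the liver of a male C57BL/6J mouse made obese by a high-fat diet (DIO mouse). The mice were 22 weeks old at the start and received the compound once daily under the skin for 30 days. Vehicle, 3 and 10 nmol/kg BI 456906, and semaglutide at 20 and 100 nmol/kg, each with 6 liver libraries from the same diet and age, entered the same model and gave the levels against which the step was read. No mouse on ordinary chow and no knockout was among these groups, so all values are those of obese mice, treated or untreated. The question was which liver genes changed only when the dose was raised from 20 to 30 nmol/kg.

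BI 456906 is a peptide that activates both the glucagon receptor and the GLP-1 receptor, whereas semaglutide activates the GLP-1 receptor alone. Hepatocytes carry the glucagon receptor, a Gs-coupled receptor that raises cyclic AMP and switches the fasting program on: CREB with its coactivators raises genes of glucose production and amino acid breakdown, and lipid synthesis falls. The GLP-1 receptor is scarcely present in hepatocytes, and its agonists reach the liver mainly through reduced food intake, weight and glucose. Both effects are joined in mice given BI 456906, and a contrast between its doses alone cannot tell them apart. The semaglutide livers show which genes also change with a GLP-1 receptor agonist alone. The paper used them to set apart genes that it did not consider secondary to weight loss. Here semaglutide was compared with vehicle for named genes, and its difference from the last dose step was not tested.

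The 12 libraries held 39597200 to 46416083 reads at 20 nmol/kg and 41966174 to 45955651 at 30 nmol/kg. No library was a copy of another in its group: the chi-square per degree of freedom between 2 libraries was at least 16.99, and all 12 were counted. The 6 libraries at 20 nmol/kg were unlike each other. On the first principal component of log2(TPM + 1), which held 33.9% of the variance, libraries 61, 63 and 64 lay between 20.7 and 27.8, libraries 62 and 66 at 2.94 and 2.496, and library 65 at -14.2. Of the 30 nmol/kg libraries, 5 lay between -19.6 and -8.55, and library 70 at 3.74. Thus library 65 lay among the libraries of the higher dose and library 70 among those of the lower, and the groups overlapped. The hepatocyte markers Alb, Ttr, Apoa1, Serpina1c and Cyp2e1 summed to 84570 to 99993 TPM at 20 nmol/kg against 89399 to 104534 TPM at 30 nmol/kg. Of 53 tested markers in 12 cell type lists, 0 passed an FDR of 0.05 between the doses by limma/voom; the acinar markers Cpa1 and Cel were at 0 in all 12 libraries. The summed cholangiocyte markers were 21.8 to 92.9 TPM at 20 nmol/kg, against 16.99 to 57.5 TPM at 30 nmol/kg, and those of Kupffer cells and macrophages 67.3 to 192 TPM and 76.6 to 204 TPM. Fewer cells of a type and less RNA per cell cannot be told apart in whole tissue.

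**Figure D1:**
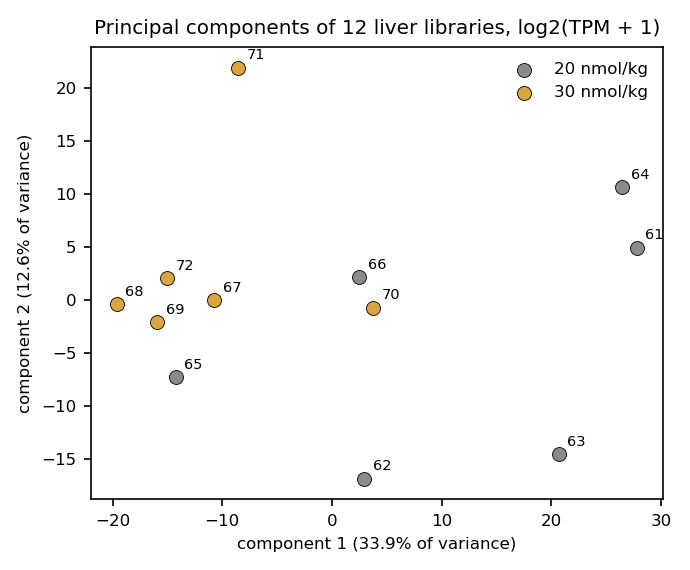
First and second principal components of the 12 liver libraries (log2(TPM + 1) of 15964 tested genes), one point per library with its number; grey points are 20 nmol/kg, yellow points 30 nmol/kg. Library 65 (20 nmol/kg) lies at -14.2 on the first component, among the 30 nmol/kg libraries, and library 70 (30 nmol/kg) at 3.74, beside libraries 62 and 66.

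Raising the dose from 20 to 30 nmol/kg changed 936 of 15964 tested genes at an FDR of at most 0.05 (the Benjamini-Hochberg adjusted p of limma/voom over all tested genes), 5.86%. Of these, 493 rose (3.09%) and 443 fell (2.77%). The changes were mostly small: the median size among them was 0.39 on the log2 scale, and 83 genes (0.52%) also changed by at least 1 on that scale, 33 of them upwards. The split leaned towards falls when scaled by library size alone (306 higher, 454 lower), by edgeR (426 and 594), by DESeq2 (662 and 861), on log2(TPM + 1) (155 and 360), on log2(TPM + 0.1) (139 and 395) and with only the 2 groups in the fit (189 and 225). The TPM of the 6 and 6 libraries did not overlap for 218 tested genes (1.37%), of which 114 were among the 936. The median over all tested genes was -0.003 on the log2 scale.

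The earlier steps were fitted in the same model. From vehicle to 3 nmol/kg 2138 genes (13.4%) passed the same FDR, from 3 to 10 nmol/kg 127 (0.796%) and from 10 to 20 nmol/kg 13 (0.0814%). Neighbouring steps share a group of mice, and the difference between the counts was not tested. With only the 2 groups compared in each fit, the 4 steps in order of dose gave 3, 8, 4 and 414 genes, so the order of the first and last step depends on the fit. Against vehicle, 7326 genes (45.9%) passed at 20 nmol/kg and 9384 (58.8%) at 30 nmol/kg.

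The count of 936 rested on individual libraries to a large extent. Without library 63 it was 47, without library 61 it was 79, without library 68 it was 195 and without library 64 it was 226; without libraries 69, 72, 67 and 71 it was 402, 451, 575 and 589. Without library 70 it rose to 1365, and without library 65 to 2290; without library 66 it was 1395, and without library 62 it was 669. Each of the 936 genes kept its sign in all 12 fits that left out 1 library, and 45 passed the FDR in every one of them, 16 higher and 29 lower at 30 nmol/kg. These signs share 11 of 12 libraries, and are a description of the estimates.

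**Figure D2:**
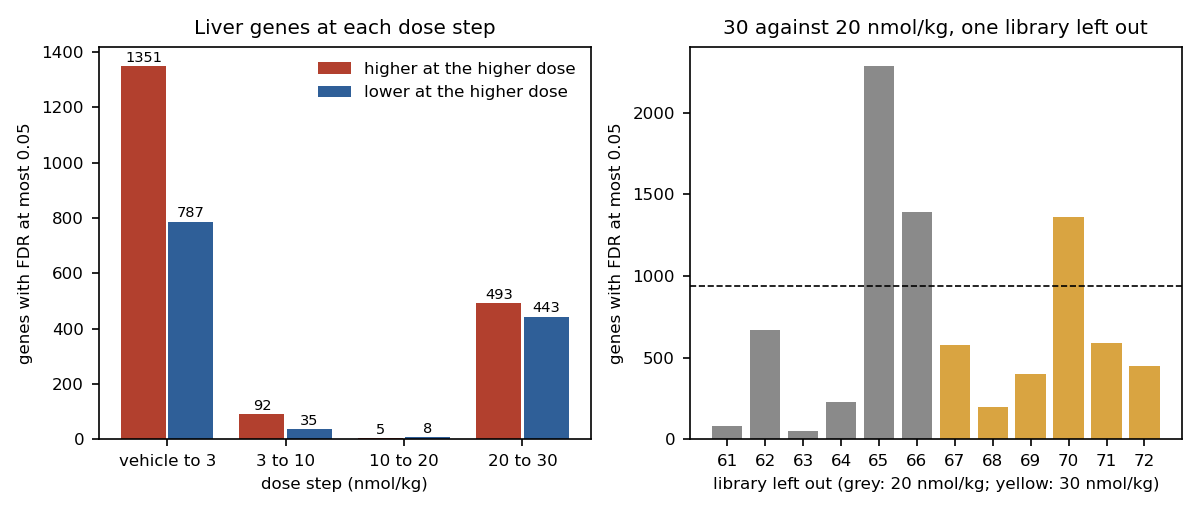
Left, number of liver genes with an FDR of at most 0.05 at each dose step (x axis, nmol/kg), split into genes higher (red) and lower (blue) at the higher dose. Right, the count for 30 against 20 nmol/kg when the library on the x axis was left out, grey for the 20 nmol/kg and yellow for the 30 nmol/kg libraries; the dashed line is the count with all libraries, 936, and the bars run from 47 (library 63) to 2290 (library 65).

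The genes fell into 3 kinds by what the lower doses had done. For 448 of the 936, the change at 20 nmol/kg against vehicle had already passed in the same direction, so that the last step continued it. For 45 it had passed in the opposite direction, and 41 of those no longer differed from vehicle at 30 nmol/kg at that FDR. Both changes of these genes use the same libraries at 20 nmol/kg, so values of those libraries alone can give such a turn. The remaining 443 had not passed at 20 nmol/kg, and 363 of them (2.27% of tested genes; 204 higher and 159 lower) met the rule for a change only at the last step: an FDR of at most 0.05 at 30 nmol/kg against both 20 nmol/kg and vehicle in one direction, and above 0.05 at 3, 10 and 20 nmol/kg. The lean towards rises turned with library size alone (129 higher, 170 lower), by edgeR (162 and 232), by DESeq2 (227 and 314) and on log2(TPM + 1) and log2(TPM + 0.1) (58 and 164, 52 and 180). A call that is missing at 20 nmol/kg does not show that nothing had happened there. In 262 of the 363 the estimate at 20 nmol/kg had the direction of the last step, and in 278 its 95% interval reached at least 0.5 times the change at 30 nmol/kg. Without libraries 63, 61, 68, 64 and 69 in turn the 363 became 18, 30, 75, 98 and 164, without library 72 they became 177, and without libraries 65, 66 and 70 they became 944, 558 and 548; without libraries 71 and 67 they were 232 and 242. Of the 363, 18 were among the 45 genes that passed without any 1 library.

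Whether the last step differed from the change before it was tested directly, as the signed difference between the change from 20 to 30 nmol/kg and the change from vehicle to 20 nmol/kg. For changes in one direction this compares their sizes, and for opposite changes it adds them, so that a pass does not show a larger last step. Among the 936 genes, 113 (0.708% of tested genes) passed at an FDR of at most 0.05. In 99 of them the difference had the sign of the last step (27 higher and 72 lower), and 14 had changed more up to 20 nmol/kg than after it. The 99 held 21 of the 363 last-step genes and none that had passed at 20 nmol/kg in the direction of the last step. They also held the 45 genes that turned back, which the choice of those genes by 2 opposite changes fixes.

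Of the 14 listed genes of bile acid synthesis 3 fell with the last step, beside 2.77% of all tested genes. All gene lists were chosen with earlier results of these data known, so such shares describe the listed genes and test nothing. Cyp7a1, the rate-limiting enzyme that hydroxylates cholesterol at the start of the classic pathway, was at 27.2, 50.0 and 81.6 TPM (lowest, median, highest) in vehicle livers, at 24.5, 50.1 and 104 TPM at 20 nmol/kg, and at 11.4, 15.3 and 21.01 TPM at 30 nmol/kg. Every library at 30 nmol/kg lay below every library at 20 nmol/kg. It fell by 1.61 on the log2 scale, with an SE of 0.34 (FDR = 0.0106), which is 3.06-fold lower, while at 20 nmol/kg against vehicle it was -0.27 with a 95% interval of -0.98 to 0.44. Semaglutide at 100 nmol/kg left it at -0.03 against vehicle (FDR = 0.96), whereas some other last-step genes, given below, changed with it. Cyp7a1 is thus a member of the last-step set, but the direct test of the last step against the earlier change did not pass (difference -1.34, FDR = 0.138). Without library 63 its FDR was 0.0555, and it passed in the other 11 fits.

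Cyp8b1, the sterol 12-alpha-hydroxylase that sets the share of cholic acid, went from a median of 459 TPM (359 to 545) at 20 nmol/kg to 287 TPM (151 to 416) at 30 nmol/kg, with groups that overlapped (log2 fold change -0.67 ± 0.14, FDR = 0.0106). It had already fallen by 0.66 on the log2 scale at 20 nmol/kg against vehicle, so the step doubled a fall under way, and it passed in all 12 fits without 1 library. Baat, which joins bile acids to taurine or glycine, was at 146 to 195 TPM at 20 nmol/kg against 128 to 144 TPM at 30 nmol/kg (-0.27 ± 0.06, FDR = 0.0173), with no overlap; it was lost without library 61 or 63 (FDR up to 0.076). The other 11 genes did not pass. Among these, Cyp27a1 and Cyp7b1 of the alternative pathway had log2 fold changes of 0.01 and 0.16, and Cyp39a1 of 0.56 (FDR = 0.0541). None of the 16 tested genes of bile acid transport and FXR signaling passed. The median of the synthesis list was -0.15, beside -0.003 over all genes, and 1 to 4 of its genes were lower when 1 library was left out.

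**Figure D3:**
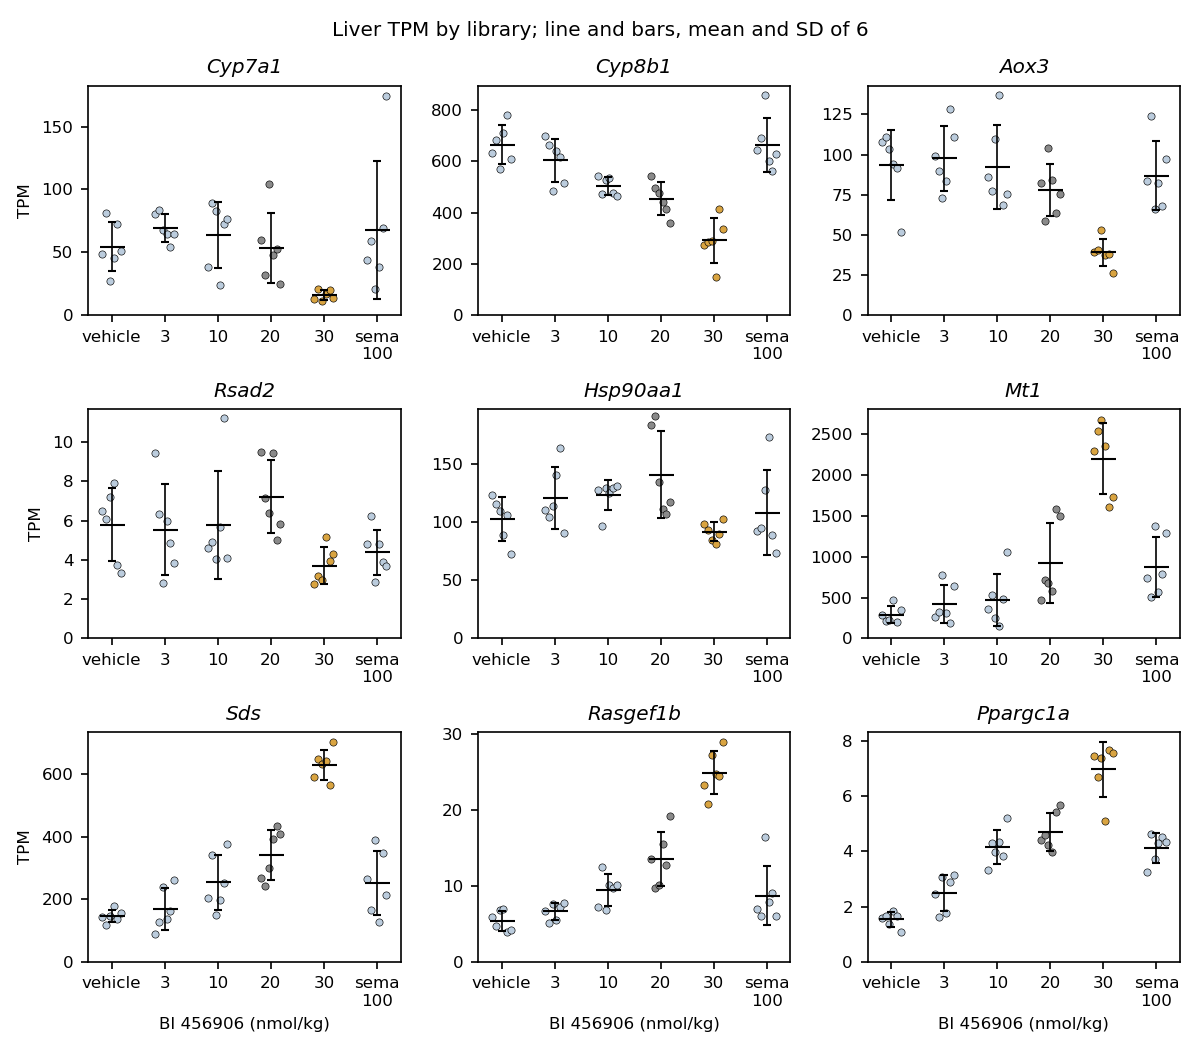
TPM of 9 genes in each liver library of 6 groups (x axis: vehicle, BI 456906 at 3 to 30 nmol/kg, and semaglutide at 100 nmol/kg), with the 20 nmol/kg libraries in grey, other groups in light blue, the 30 nmol/kg libraries in yellow and the mean ± SD of 6 as line and bars. Cyp7a1, Aox3, Mt1, Sds, Rasgef1b and Hsp90aa1 have no overlap between 20 and 30 nmol/kg, whereas Cyp8b1, Rsad2 and Ppargc1a overlap.

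Genes that interferon induces were lower at 30 than at 20 nmol/kg in 7 of the 19 listed cases, beside 2.77% of all tested genes. None was higher, and all 19 estimates were below 0, with a median of -0.66. The share is no test, because the list was chosen with earlier results of these data known. These genes encode antiviral effectors and the sensors and factors that induce them, and many carry promoter elements for the STAT and IRF factors. Ifit1, which binds foreign RNA caps, was at 3.48, 6.80 and 12.01 TPM at 20 nmol/kg and at 2.11, 2.32 and 4.64 TPM at 30 nmol/kg (-1.28 ± 0.34, FDR = 0.0219); the highest value at 30 nmol/kg, in library 70, reached into the range of the lower dose. Rsad2, encoding viperin, went from a median of 6.77 TPM (5.03 to 9.47) to 3.56 TPM (2.76 to 5.15; -0.90 ± 0.25, FDR = 0.0292), with a narrow overlap. Isg15, a ubiquitin-like modifier, had log2 fold change -0.96 ± 0.28 (FDR = 0.0349), and Oasl1 -0.94 ± 0.26 (FDR = 0.0299). The RNA sensors Ddx58 (RIG-I) and Ifih1 (MDA5) fell by 0.60 and 0.41 on the log2 scale, from medians of 14.3 and 9.07 TPM to 9.20 and 6.26 TPM (FDR = 0.0252 and 0.0211), and Rtp4 fell by 0.71 (FDR = 0.0306). Isg15, Oasl1 and Rtp4 were named after their values had been seen.

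The vehicle group was not far from the 20 nmol/kg group for these genes. At 20 nmol/kg against vehicle 0 of the 19 were higher and 1 was lower at that FDR, with a median log2 fold change of 0.03, and at 30 nmol/kg against vehicle 14 were lower, in a contrast where 58.8% of all tested genes passed in either direction. Of the 7 that fell at the last step, 5 belonged to the last-step set. Ddx58 and Ifih1 did not, and at 30 nmol/kg they did not differ from vehicle past the test (-0.26 and -0.18, FDR = 0.179 and 0.135). With semaglutide at 100 nmol/kg, Oasl1 and Isg15 were below vehicle by 0.93 and 0.66 (FDR = 0.00211 and 0.0381). Ifit1, Rsad2, Rtp4, Ddx58 and Ifih1 did not pass there, with estimates from -0.67 to -0.08. The call was fragile: without library 61, 63, 64 or 68 none of the 19 passed, without library 69 there was 1 and without library 67 there were 2, without libraries 62 and 71 there were 5, without library 72 there were 6, and without library 66, 65 or 70 there were 14, 13 and 10. The median stayed between -0.78 and -0.53 in these 12 fits, and 3 to 15 genes were lower under the other settings. Of the lymphoid and macrophage marker lists, none had a member past the FDR: summed T and NK cell markers were 2.51 to 7.39 TPM at 20 nmol/kg, against 3.89 to 4.99 TPM at 30 nmol/kg. The part of those cells in the interferon genes was not tested.

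Promoters of 3 of the genes that fell are shown because their upstream sequence carries the core of the interferon-stimulated response element, searched on both strands as GAAA, any 2 bases, then GAAA. Each sequence is the 150 bases before the RefSeq start (GRCm38.p6), read 5′ to 3′ on the strand of the gene, with matches in capitals, and overlapping matches run together. Ifit1 is at chr19:34640739-34640888 (plus strand), Isg15 at chr4:156200819-156200968 (minus strand) and Rsad2 at chr12:26456453-26456602 (minus strand).
Ifit1: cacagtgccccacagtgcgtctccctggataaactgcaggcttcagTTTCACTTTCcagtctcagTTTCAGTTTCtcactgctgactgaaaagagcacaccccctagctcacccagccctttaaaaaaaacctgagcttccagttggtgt
Isg15: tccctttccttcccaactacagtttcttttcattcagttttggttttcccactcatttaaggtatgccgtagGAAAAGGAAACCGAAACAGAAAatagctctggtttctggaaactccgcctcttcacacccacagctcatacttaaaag
Rsad2: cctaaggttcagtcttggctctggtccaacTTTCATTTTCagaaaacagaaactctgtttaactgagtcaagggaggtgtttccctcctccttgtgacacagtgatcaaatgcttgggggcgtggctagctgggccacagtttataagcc
In the window from 250 bases before to 50 after the start, the core was found in 9 of the 14 listed interferon genes with a RefSeq promoter, and in 5 of the 6 such genes that fell. Over all 32851 promoters of that length the share was 3.44%. That share counts single promoters, whereas a listed gene counted when any of its promoters matched. A match describes the letters and not the occupancy of the site.

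Of the 9 listed heat shock proteins 4 fell, beside 2.77% of all tested genes, and none rose; the median was -0.47. These chaperones are induced by HSF1 when proteins misfold. Hsp90aa1, the inducible cytosolic HSP90, was at 107, 127 and 191 TPM at 20 nmol/kg and at 81.4, 91.8 and 103 TPM at 30 nmol/kg, with no overlap (-0.54 ± 0.15, FDR = 0.0287). At 20 nmol/kg it had been above vehicle by 0.31 (95% interval 0.0039 to 0.62, FDR = 0.0916), and the last step differed from that change by the direct test (difference -0.85, FDR = 0.0262). At 30 nmol/kg Hsp90aa1 did not differ from vehicle past the test (-0.23, FDR = 0.179). In that contrast 5 of the 9 listed genes were lower, where 58.8% of all tested genes passed in either direction. Hspe1, the mitochondrial co-chaperonin, fell from 226 to 284 TPM to 192 to 220 TPM (-0.28 ± 0.07, FDR = 0.0222), also with no overlap. Of the 4 that fell, Hspe1 was the 1 in the last-step set. It was also below vehicle with semaglutide at 100 nmol/kg (-0.33, FDR = 0.000309). The small heat shock protein Hspb1 (-0.87 ± 0.24, FDR = 0.0299) and Hspa1a (-0.89 ± 0.27, FDR = 0.0402) overlapped between the doses. Hspa1a shares nearly all its sequence with Hspa1b (-0.84, FDR = 0.067), and reads of the pair may have been divided by the counting. Without library 61, 62, 63 or 68 none of the 9 passed, and without library 65 there were 7; without libraries 66, 67 and 70 there were 6, 4 and 3, without library 71 there was 1 and without 64, 69 or 72 there were 2.

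The heat shock element, searched on both strands as GAA, any 2 bases, TTC, any 2 bases, then GAA, was in 0.603% of all promoters and in 3 of the 7 listed heat shock genes with a promoter entry. The share counts single entries, whereas a gene counted when any of its entries matched. Hsph1 and Hspd1, which held the element, have 2 entries each. Of the 3 with an entry among those that fell, Hspe1 held it, and its 150 bases before the start (chr1:55087998-55088147, plus strand, GRCm38.p6) are shown with the 2 overlapping matches in capitals.
Hspe1: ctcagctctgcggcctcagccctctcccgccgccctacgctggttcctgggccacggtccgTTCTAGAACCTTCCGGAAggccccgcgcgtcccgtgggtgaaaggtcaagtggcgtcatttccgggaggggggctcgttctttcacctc
In the endoplasmic reticulum, Pdia4, a protein disulfide isomerase, was at 85.4, 119 and 155 TPM at 20 nmol/kg and at 64.8, 75.4 and 80.7 TPM at 30 nmol/kg (-0.61 ± 0.14, FDR = 0.0155), with no overlap and below its vehicle median of 93.9 TPM, and the direct test passed (difference -0.85, FDR = 0.018). It was the 1 of 19 listed reticulum chaperones that passed, a share near the 5.86% of all tested genes. At 20 nmol/kg against vehicle 11 members had been higher, where 45.9% of all genes passed in either direction. The list had a median of -0.22 at the last step. Pdia4 was lost without library 61 or 63 (FDR up to 0.0735).

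**Figure D4:**
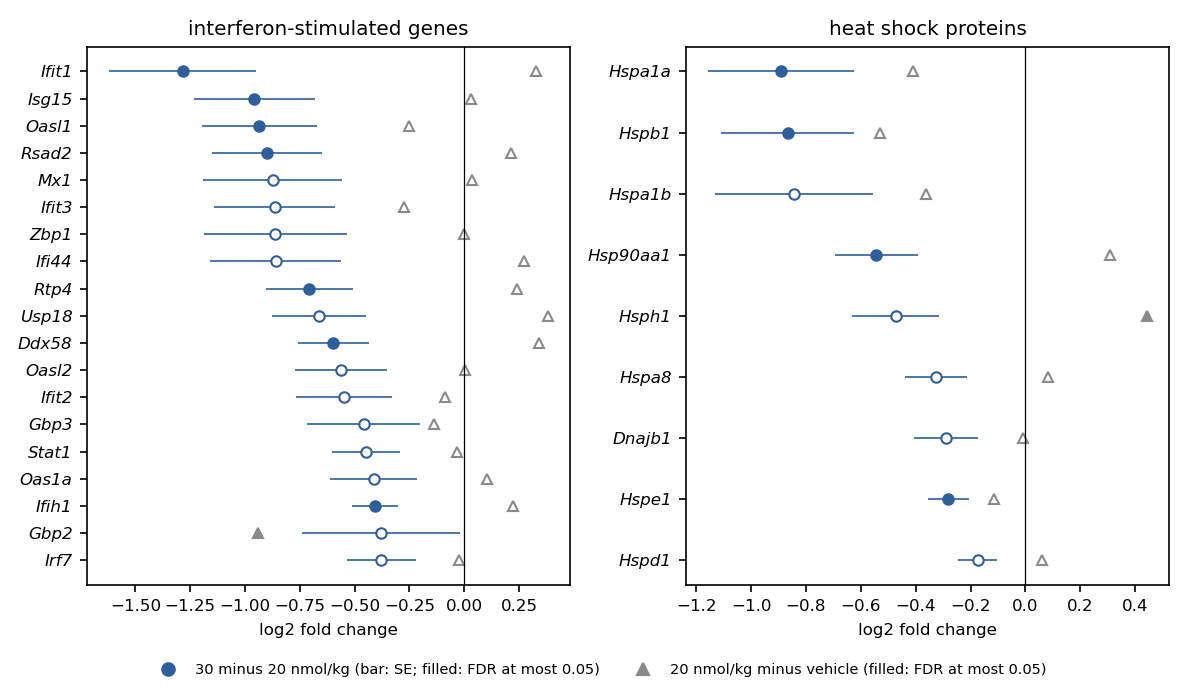
Log2 fold change of the 19 interferon-stimulated genes (left) and the 9 heat shock proteins (right) at 30 minus 20 nmol/kg (circles, bars are SE) and at 20 nmol/kg minus vehicle (triangles); filled symbols have an FDR of at most 0.05. All circles lie below 0, with 7 and 4 filled; of the triangles, that of Gbp2 is filled below 0 and that of Hsph1 above it.

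Genes of the fasting program rose further in a few places only. Ppargc1a, the coactivator that drives gluconeogenesis and mitochondrial genes, was at 3.97, 4.50 and 5.68 TPM at 20 nmol/kg and at 5.09, 7.44 and 7.68 TPM at 30 nmol/kg (0.54 ± 0.12, FDR = 0.012). It was the 1 of 6 gluconeogenesis genes to pass, beside 5.86% of all tested genes. Without library 63 its FDR was 0.0555, above the threshold. Its rise up to 20 nmol/kg had been larger (1.38 on the log2 scale), and the direct test gave a difference of -0.84 (FDR = 0.0109). Pck1, the gatekeeper enzyme of gluconeogenesis, was at 1901 to 3148 TPM at 20 nmol/kg against 2485 to 3322 TPM at 30 nmol/kg, with no change past the test (0.23 ± 0.17, FDR = 0.413). Crtc2, the CREB coactivator that glucagon releases into the nucleus, rose by 0.22 ± 0.06 (FDR = 0.0203), from a median of 28.2 to 33.01 TPM. Gcgr, the glucagon receptor itself, fell from a median of 211 TPM (170 to 229) to 166 TPM (160 to 184; -0.26 ± 0.07, FDR = 0.0237), after a fall of 0.23 up to 20 nmol/kg. Crtc2 was lost without library 61, 63, 64 or 69 and Gcgr without library 61, 63, 64, 68 or 71 (FDR up to 0.0989). The other 40 of the 42 tested genes of glucagon receptor and cAMP signaling did not pass, a share of calls near the 5.86% of all tested genes. The GLP-1 receptor gene Glp1r was at 0.00 to 0.10 TPM in these 12 libraries and was not tested.

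Of 48 tested genes of amino acid breakdown 2 rose and 1 fell, a share near the 5.86% of all tested genes. Sds, which deaminates serine to pyruvate, was at 243, 347 and 435 TPM at 20 nmol/kg and at 566, 638 and 703 TPM at 30 nmol/kg, without overlap (0.92 ± 0.25, FDR = 0.0248), and was at 117 to 179 TPM in vehicle livers. Its neighbour Sdsl, an enzyme of the same family, rose by 0.82 ± 0.23 (FDR = 0.027), from a median of 23.5 to 44.9 TPM; both genes lie within 25.7 kb at chr5:120458186-120483932 (GRCm38), where 4 genes were tested and these 2 passed. Amt, the aminomethyltransferase of the glycine cleavage system, fell by 0.41 ± 0.10 (FDR = 0.0188) and was in the last-step set. Sds was lost without any of libraries 61, 62, 63, 68, 69 and 72, Sdsl also without 64 and 71 but not without the others, and Amt without 61, 63 or 64 (FDR up to 0.0867). The glutamine and alanine carrier Slc38a2 rose by 0.58 ± 0.18 (FDR = 0.0458), adding to 1.67 at 20 nmol/kg. The direct test put the last step below the earlier change (difference -1.09, FDR = 0.0146). Slc38a2 was the 1 of 14 amino acid transporters past the test, beside 5.86% of all tested genes. None of the 11 genes of the urea cycle and ammonia handling passed, with a median of 0.20: Arg1 had a log2 fold change of 0.43 (FDR = 0.076). Sesn2 was the 1 of 18 ATF4 and serine synthesis genes past the test (0.46 ± 0.14, FDR = 0.0464), a share near the 5.86% of all tested genes. It passed in 2 of the 12 fits without 1 library, as Slc38a2 did in 3.

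Of the 10 genes of NAD synthesis and nicotinamide disposal 2 fell, beside 2.77% of all tested genes. Aox3, an aldehyde oxidase that oxidizes N-methylnicotinamide and many drugs, was at 58.6, 78.8 and 104 TPM at 20 nmol/kg and at 26.2, 38.7 and 53.1 TPM at 30 nmol/kg (-0.95 ± 0.17, FDR = 0.00546). The groups did not overlap, and the gene belonged to the last-step set, although the change at 20 nmol/kg against vehicle, -0.41 with an interval of -0.77 to -0.05, lay just outside the threshold (FDR = 0.057). It passed in all 12 fits without 1 library. Naprt, which starts NAD synthesis from nicotinic acid, fell by 0.31 ± 0.09 (FDR = 0.0414) and passed in 4 of the 12 fits. Nnmt, which methylates nicotinamide, was at 331 to 420 TPM at 20 nmol/kg and at 468 to 651 TPM at 30 nmol/kg; the groups did not overlap in TPM, but its log2 fold change of 0.54 ± 0.30 did not pass (FDR = 0.257), and 1 of 11 other settings called it. In the methionine cycle, Chdh, which oxidizes choline towards betaine, fell by 0.31 ± 0.09 (FDR = 0.0339), without a difference from vehicle past the test at 30 nmol/kg (FDR = 0.0926). It passed in 3 of the 12 fits. Chdh was the 1 of 13 genes of the methionine cycle and methyl transfer past the test, beside 5.86% of all tested genes.

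Lipid genes were changed singly. Elovl6, which elongates palmitate, was at 7.49, 13.98 and 26.1 TPM at 20 nmol/kg and at 4.37, 5.88 and 9.99 TPM at 30 nmol/kg (-1.12 ± 0.27, FDR = 0.0173). It was the 1 of 15 lipogenic genes to pass, a share near the 5.86% of all tested genes, and the list median was -0.14. Plin5, the lipid droplet protein that tethers droplets to mitochondria, rose from a median of 148 TPM (110 to 248) to 312 TPM (199 to 331; 0.85 ± 0.21, FDR = 0.0186). The droplet proteins Cideb and Fitm1 fell by 0.23 ± 0.06 and 0.73 ± 0.20 (FDR = 0.0222 and 0.0256), and Cideb had no overlap, with 253 to 308 TPM at 20 nmol/kg against 228 to 246 TPM at 30 nmol/kg. Each of these 4 genes continued a change that had passed at 20 nmol/kg, and each was lost without library 61 or 63 (FDR up to 0.0946). Elovl6 was also lost without library 64, Plin5 without 68, Cideb without 62, 68 or 71, and Fitm1 without 64, 68 or 72. The other 15 of the 18 tested lipid droplet genes did not pass, and of all tested genes 5.86% passed. None of the 24 genes of cholesterol synthesis and uptake and none of the 22 of fatty acid oxidation and ketogenesis passed, with medians of -0.11 and 0.03.

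Metal, redox and drug metabolism held the most abundant gene of the largest rises. Mt1, the metallothionein that binds zinc and copper, was at 476, 698 and 1589 TPM at 20 nmol/kg and at 1606, 2327 and 2681 TPM at 30 nmol/kg, against 203 to 476 TPM in vehicle livers. The 6 and 6 libraries met without overlapping (1.35 ± 0.36, FDR = 0.0239, 2.55-fold), and the call was lost without library 61, 63, 64, 68 or 69 (FDR up to 0.0865). Tfrc, the transferrin receptor, rose by 0.63 ± 0.15 (FDR = 0.0173), the 1 of 11 iron genes past the test, beside 5.86% of all tested genes. Por, the reductase that feeds electrons to every microsomal cytochrome P450, rose from a median of 527 to 885 TPM (0.61 ± 0.18, FDR = 0.0362). Cyp2f2, a periportal P450, fell from 179, 260 and 301 TPM to 69.5, 168 and 176 TPM, without overlap (-0.75 ± 0.16, FDR = 0.0106) and in all 12 fits without 1 library, and Cyp2c55 fell at levels under 1 TPM (-1.87 ± 0.47, FDR = 0.0193). Of the 22 tested NRF2 targets and antioxidants 21 did not pass, and of the 23 drug-metabolising cytochrome P450 genes 20 did not. The list medians were -0.05 and -0.06, and 5.86% of all tested genes passed. Cyp2j9, of the P450 family that oxidizes arachidonic acid, rose from 3.13 to 7.81 TPM to 8.25 to 13.5 TPM (1.14 ± 0.20, FDR = 0.00527) and passed in all 12 fits; its relatives have similar sequences, so reads could be shared among them. Of the 24 tested acute phase genes 2 fell, beside 2.77% of all tested genes, and the list median was -0.05. These 2, Cp (ceruloplasmin) and Crp, fell by 0.22 and 0.32 (FDR = 0.0198 and 0.0414), and both belonged to the last-step set. Tfrc passed in 10, Por in 4, Cyp2c55 in 8, Cp in 9 and Crp in 3 of the 12 fits without 1 library (FDR up to 0.13).

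Clock and hormone-axis genes moved at few members. Ciart, a repressor of CLOCK and BMAL1, was at 2.43, 3.995 and 12.3 TPM at 20 nmol/kg and at 10.02, 17.6 and 21.4 TPM at 30 nmol/kg (1.70 ± 0.43, FDR = 0.0198); the groups overlapped, and the gene counted as last-step, with 1.35 (0.11 to 2.58) at 20 nmol/kg against vehicle. Cry1 rose by 0.40 ± 0.10 (FDR = 0.0213), and the other 17 of 19 clock genes did not pass, where 5.86% of all tested genes passed. Ciart passed in 9 and Cry1 in 7 of the 12 fits without 1 library (FDR up to 0.0939). The time of day of dissection was not used here. Of the sex-biased genes, which follow the growth hormone pulse, Cux2 and Fmo2 of the female-biased list were higher and Ihh of the male-biased list was lower, at 1 to 2 of 22 tested genes each, near the 5.86% of all genes. Ihh was at levels under 1 TPM, 0.19 to 0.54 TPM at 20 nmol/kg and 0.09 to 0.31 TPM at 30 nmol/kg, with overlap (-1.40 ± 0.44, FDR = 0.0472). It passed in 6 of the 10 other settings that gave a value. Fmo2 passed in 2 and Ihh in 3 of the 12 fits without 1 library (FDR up to 0.134). Cux2 ranged from 1.22 to 23.97 TPM at 30 nmol/kg, with the highest value in library 70; without that library its FDR was above 0.05, as it was without 8 others (up to 0.0954). The male-biased list had a median of -0.57 and the female-biased list of 0.23. Stat5a, of the STAT5 family, was the 1 of 18 growth hormone, insulin and IGF axis genes past the test (-0.42 ± 0.13, FDR = 0.0472), near the 5.86% of all tested genes. It passed in 4 of the 12 fits without 1 library.

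**Figure D5:**
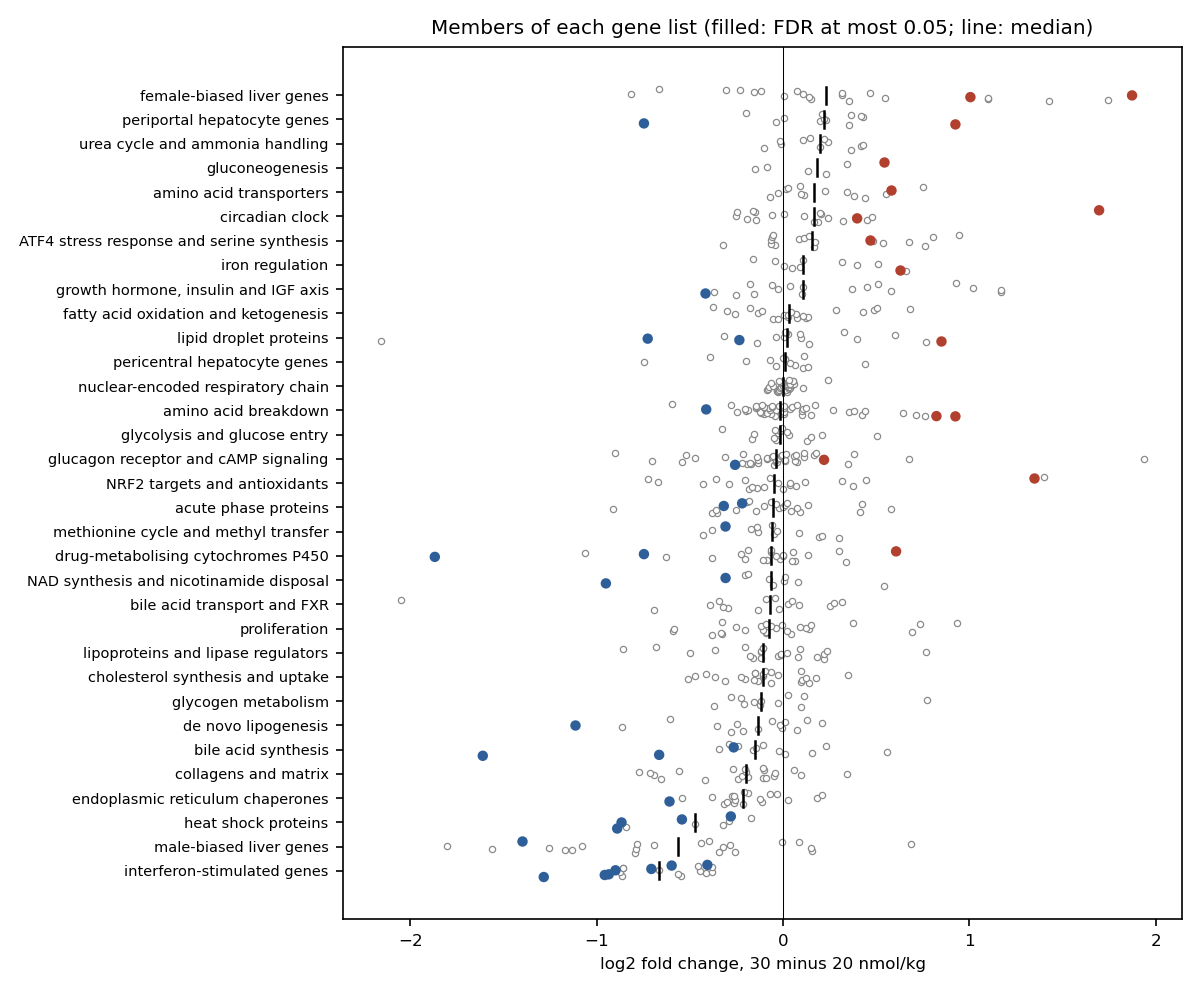
Log2 fold change at 30 minus 20 nmol/kg (x axis) of each tested member of the 33 gene lists (y axis), ordered by list median (black line); filled points have an FDR of at most 0.05, red above 0 and blue below. The interferon, male-biased and heat shock lists have the lowest medians, -0.66, -0.57 and -0.47, and in 11 lists no point is filled.

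Of the 33 gene lists, 11 had no member past the test and 6 had 3 or more. Beside those given above, no member passed among glycolysis, glycogen metabolism, lipoproteins and lipase regulators, the respiratory chain (34 genes, median 0.00), proliferation, collagens and matrix, or pericentral genes. At 20 nmol/kg against vehicle, where 45.9% of all tested genes passed, 30 of the 34 respiratory chain genes and 13 of the 21 collagen and matrix genes were lower, and 5 of the 26 proliferation genes were lower and 2 higher.

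Outside the lists, the largest falls and rises were chosen by size among genes whose TPM did not overlap between the doses. The greatest fall was that of Gm45086, a long noncoding RNA, from 0.89 to 3.49 TPM to 0.00 to 0.88 TPM (-1.91 ± 0.41, FDR = 0.0117). It lies on chromosome 7 within 188.7 kb (chr7:48724380-48913040, GRCm38) of Csrp3 and Gm2788, which were also among the 12 largest falls. Csrp3, a muscle LIM protein, went from 15.5, 20.2 and 28.4 TPM to 4.79, 11.5 and 14.4 TPM (-1.10 ± 0.24, FDR = 0.0115), and the noncoding Gm2788 from 22.6, 37.4 and 63.8 TPM to 7.25, 16.3 and 19.4 TPM (-1.24 ± 0.23, FDR = 0.00594). The other 3 tested genes of that interval (Zdhhc13, E2f8 and Nav2) did not pass. Csrp3 and Gm2788 passed in all 12 fits without 1 library, and Gm45086 was lost without library 63 (FDR = 0.052). All 3 had fallen at 20 nmol/kg as well.

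The other large falls were Fam89a (-1.31), Rarres1 (-1.13), Nat8f5 (-1.08), Paqr7 (-0.91), Adh6-ps1 (-0.90), Plekha4 (-0.83) and Thnsl1 (-0.79). Rarres1, a gene that retinoic acid induces, had fallen most before: it was at 80.4 to 108 TPM in vehicle livers, at 11.2 to 23.2 TPM at 20 nmol/kg and at 4.04 to 8.76 TPM at 30 nmol/kg, and the direct test put the last step below the earlier change (difference 1.51, FDR = 0.018). Paqr7, a membrane progestin receptor, fell from 29.1, 51.4 and 60.1 TPM to 19.1, 26.5 and 28.3 TPM (FDR = 0.00594). Paqr7 and Thnsl1 passed in all 12 fits without 1 library, Plekha4 in 3, Nat8f5 and Adh6-ps1 in 5, Fam89a in 10 and Rarres1 in 11. Library 63 was among those lost for each of the last 5 (FDR up to 0.119).

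The other large rises, all without overlap, were Rasgef1b, AA986860, Pnp2, Tox, Col13a1, Galnt18, 9330121J05Rik, Nrbp2 and Sgms1, with log2 fold changes from 0.53 to 0.95. Rasgef1b, an exchange factor for small GTPases, followed the dose from 5.32 TPM (median) in vehicle to 13.1 TPM at 20 nmol/kg, against 24.6 TPM at 30 nmol/kg (0.95 ± 0.17, FDR = 0.00541). Sgms1, a sphingomyelin synthase, had the smallest FDR of the named rises, 0.00224, at 5.69 to 9.45 TPM and 10.1 to 13.1 TPM. Both passed in all 12 fits without 1 library. Of the others, AA986860 passed in 11, Nrbp2 in 10, Tox in 9 and 9330121J05Rik in 8 of these fits. Pnp2, Col13a1 and Galnt18 belonged to the last-step set, with 95% intervals at 20 nmol/kg against vehicle of -0.53 to 0.43, -0.40 to 0.24 and -0.26 to 0.34; Pnp2 has a near copy, Pnp, with which reads could be shared. Without library 63 none of the 3 passed, and the FDR rose to at most 0.0789 over the 12 fits. With semaglutide at 100 nmol/kg Col13a1 and Galnt18 were also above vehicle (0.46 and 0.41, FDR = 0.0117 and 0.0168). Pnp2 did not pass there (0.03, FDR = 0.917), and none of the 3 passed with semaglutide at 20 nmol/kg. 9330121J05Rik is annotated as antisense, and reads of its partner strand cannot be told apart without stranded counting.

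The last-step genes with the smallest FDR, beside Aox3, had log2 fold changes between 0.27 and 0.83 in size. Ints3, a subunit of the Integrator complex that processes small nuclear RNAs, was at 11.97, 14.2 and 15.01 TPM at 20 nmol/kg and at 9.92, 10.8 and 11.97 TPM at 30 nmol/kg (-0.27 ± 0.04, FDR = 0.00224), with -0.01 (-0.09 to 0.08) at 20 nmol/kg against vehicle. The direct test passed for it (difference -0.26, FDR = 0.017), as it did for Lrrc3 (-0.45 at the last step), Prr3 (0.36) and Wdr70 (0.50) at FDRs of 0.0281, 0.0258 and 0.0289. Their intervals at 20 nmol/kg against vehicle were -0.15 to 0.20, -0.21 to 0.09 and -0.31 to 0.13. It did not pass for the others: Tdrd7 (-0.46), Rbm48 (0.44), the actin-binding Lasp1 (-0.70), Erlin1 of the endoplasmic reticulum membrane (-0.83), the splicing-associated Thrap3 (0.28), 4930556M19Rik (-0.56) and Aste1 (0.61), whose intervals at 20 nmol/kg were -0.26 to 0.06, -0.09 to 0.27, -0.51 to 0.05, -0.45 to 0.19, -0.02 to 0.21, -0.36 to 0.06 and -0.03 to 0.52. Each of these 11 genes passed in all 12 fits without 1 library. Some of them also changed with semaglutide at 100 nmol/kg against vehicle, in the direction of the last step. These were Ints3 (-0.17), Lasp1 (-0.55), Erlin1 (-0.55), Rbm48 (0.30), Thrap3 (0.17) and Aste1 (0.47), each at an FDR of at most 0.0152. Tdrd7, Lrrc3, Prr3, Wdr70 and 4930556M19Rik did not pass there, nor did Aox3. With semaglutide at 20 nmol/kg against vehicle, Prr3 passed in the direction of the last step (0.19, FDR = 0.0314). Lrrc3 passed there in the opposite direction (0.21, FDR = 0.0476). Tdrd7, Wdr70, 4930556M19Rik and Aox3 did not pass at that dose either. Only Thrap3, with 47.3 to 56.5 TPM and 60.1 to 68.2 TPM, and Wdr70, with 2.45 to 3.61 TPM and 3.65 to 4.25 TPM, had no overlap among these 11. Erlin1 was at 14.2, 23.4 and 26.1 TPM at 20 nmol/kg and at 9.37, 11.1 and 14.7 TPM at 30 nmol/kg.

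Fgf21 and Ren1 did not pass at the last step. Fgf21, the hepatokine of fasting, had medians of 44.1 TPM at 20 nmol/kg, against 40.9 TPM at 30 nmol/kg, with values up to 66.5 and 50.4 TPM (-0.18 ± 0.22, FDR = 0.664). Ren1, encoding renin, was at 0.27 to 0.53 TPM and 0.28 to 0.75 TPM (0.46 ± 0.34, FDR = 0.413), after a rise from 0.00 to 0.04 TPM in vehicle livers.

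In epididymal fat (eWAT) of the same dose groups, 0 of 18536 tested genes (0%) passed the FDR between 30 and 20 nmol/kg by limma/voom; 2118 had an unadjusted p under 0.05, DESeq2 called 73 and the edgeR quasi-likelihood test 0. Without eWAT library 23 limma/voom called 146 genes, without library 28 it called 10, and with sample quality weights 4843. For Mt1 the eWAT log2 fold change was 0.54 (FDR = 0.383) beside 1.35 in liver. The difference between tissues was not tested.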

How the data were processed

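The liver and eWAT of DIO mice were sequenced as RNA, 6 libraries a group. The authors aligned the reads to mm10/GRCm38 and counted them per gene (STAR 2.5.2b, RSEM 1.3.0 and featureCounts 1.5.1 are named in the submitters' processing notes). The deposited gene counts are a scaled signal: whole reads divided by 1 factor per library, and 100% of nonzero values were whole multiples (tolerance 0.1 reads). TPM values were used for levels as deposited by the authors. The labels and the methods of the study describe different library kits, one of them not stranded. Columns were matched to samples by library number, which differs in every group, so that nothing pairs the mice; p-values measure the spread between these libraries. Gene names and coordinates came from GENCODE M21 (48434 of 48794 identifiers had a symbol), promoters from RefSeq (GRCm38.p6).

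The test was limma/voom (limma 3.58.1, edgeR 4.0.16, R 4.3.3) with TMM factors, an offset of 0.5 and filterByExpr, run on the deposited scaled counts in 1 fit of 42 liver libraries in 7 groups (likewise eWAT), with Benjamini-Hochberg adjustment. Standard errors are moderated. Alternatives were other scalings, filters, tests (edgeR quasi-likelihood, DESeq2 1.42.0), TPM, sample weights, fewer groups and each library left out. Genes named are the 12 largest rises and 12 largest falls without overlap at a mean of at least 1 TPM in either group, the 12 last-step genes with the smallest FDR, up to 4 passing members of each list, and 7 fixed genes. Another 12 were picked with their values known. The members of the lists, and the lists themselves, were chosen with earlier results of these data known. The scripts were tested on simulated data.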

Additional observations from a re-analysis of the deposited data

Results flagged for a closer look

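In a group of 6 mice, a library was marked when its gap to the next value, over the range of the group, was above Dixon's 95% critical value, a rule that marks about 1 group in 20 by chance. Among the 88 named genes in 176 groups, 17 values were marked, and 10 of these lay in library 70 of the 30 nmol/kg group.

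Library 70 held the highest 30 nmol/kg value of Lasp1 (44.9 TPM, the next being 36.04), Cux2 (23.97, next 7.75), Gcgr (184, next 166), Ifit1 (4.64, next 2.41), Aqp8 (15.5, next 8.95), Parp14 (9.40, next 6.87) and Rtp4 (21.4, next 14.3). It held the lowest value of Cyp2f2 (69.5, next 147), Por (683, next 842) and Fkbp5 (103, next 165). For Lasp1, Gcgr, Ifit1, Aqp8, Parp14, Rtp4, Por and Fkbp5 its value lay towards the 20 nmol/kg group, and for Cux2 and Cyp2f2 it lay beyond the rest of its own group. Its depth was 45955651 reads, the highest of its group, and 11.1% of its TPM came from mitochondrial transcripts, against 9.93% to 10.4% in the other 5. Whether these go together with the genes marked was not tested.

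In other libraries of the 30 nmol/kg group, Rarres1 was lowest in library 72 (4.04 TPM, next 7.17) and Rbm48 highest in library 69 (6.35, next 5.06). In the 20 nmol/kg group, library 66 held the highest Slc38a2 (90.6, next 56.01) and Tfrc (8.70, next 5.84), library 64 the highest Plekha4 (1.76, next 1.23) and Jun (44.4, next 22.1), and library 62 the lowest 9330121J05Rik (2.54, next 3.49).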

How the results depend on the processing

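Counts at 30 against 20 nmol/kg moved with the libraries and with the method. Over the 12 fits that left out 1 library, the 936 genes ranged from 47 to 2290, the 83 with a log2 fold change of at least 1 in size from 7 to 222, the 363 last-step genes from 18 to 944, and the 113 of the direct test from 1 to 364. The 13 genes at 10 to 20 nmol/kg ranged from 3 to 20, the 127 at 3 to 10 nmol/kg from 117 to 139, the 2138 at vehicle to 3 nmol/kg from 2042 to 2167, and the 0 of eWAT from 0 to 146 (146 without library 23 and 10 without library 28). The 936 became 489 with no filter, 1523 by DESeq2, 515 and 534 on log2(TPM + 1) and log2(TPM + 0.1), 3119 with sample quality weights and 414 when the fit held only the 2 groups; the edgeR quasi-likelihood test called 1020 (426 higher, 594 lower). The 83 became 52 with at least 10 counts in every library, 22 on log2(TPM + 1), 261 with quality weights and 44 with 2 groups. The 363 became 209 with no filter, 222 and 232 on TPM, 1108 with quality weights and 39 with a log2 fold change of at least 1 in size. The 113 became 59 with no filter, 240 by DESeq2 and 573 with quality weights. From 10 to 20 nmol/kg the count was 5 with no filter, 119 by DESeq2, 20 with quality weights and 4 with 2 groups. From 3 to 10 nmol/kg it was 203 with library size alone, 19 with no filter, 375 by DESeq2, 328 with quality weights and 8 with 2 groups; from vehicle to 3 nmol/kg it was 3272 with quality weights and 3 with 2 groups. In eWAT it was 1 with no filter, 73 by DESeq2 and 4843 with quality weights. The cause of these differences was not tested. Of the log2 fold changes of the named genes over all settings, and of the counts of 3 gene lists, 1647 kept their direction and side of the threshold, 393 log2 fold changes kept the direction but not the threshold, 1 gained it, 24 list counts moved by over 1.5 times and none reversed. No paired analysis was possible because the library numbers differ in every group.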

Other observations

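A further 9 genes outside the lists, and 3 interferon genes from them (Isg15, Oasl1 and Rtp4, given above), were picked after their values were seen. Among the larger rises with overlap, Fkbp5, a target of the glucocorticoid receptor, went from 28.1, 50.6 and 142 TPM at 20 nmol/kg to 103, 171 and 180 TPM at 30 nmol/kg (log2 fold change 1.55 ± 0.45, FDR = 0.0358). Jun, of the AP-1 transcription factor, went from 14.7, 17.5 and 44.4 TPM to 28.2, 57.7 and 84.4 TPM (1.37 ± 0.32, FDR = 0.0173), and for it the direct test of the last step against the earlier change passed (difference 1.67, FDR = 0.0387). Gadd45g (1.49 ± 0.41, FDR = 0.0265), a stress sensor, and Retreg1 (1.09 ± 0.29, FDR = 0.0236), a receptor for autophagy of the endoplasmic reticulum, rose as well. With semaglutide at 100 nmol/kg Fkbp5, Gadd45g and Retreg1 were also above vehicle (1.88, 1.02 and 0.83, FDR = 0.000564, 0.0333 and 0.0166). Jun did not pass there (0.29, FDR = 0.477), but it did with semaglutide at 20 nmol/kg (1.00, FDR = 0.0103). Jun was lost without library 61 or 63 (FDR up to 0.067), and Fkbp5, Gadd45g and Retreg1 passed in 4, 5 and 8 of the 12 fits without 1 library.

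Aqp8, a water and ammonia channel of the canalicular membrane and mitochondria, was at 136 to 183 TPM in vehicle livers, 12.9, 31.3 and 63.8 TPM at 20 nmol/kg, against 8.15, 8.37 and 15.5 TPM at 30 nmol/kg (-1.66 ± 0.44, FDR = 0.0222). It passed in 8 of the 12 fits without 1 library (FDR up to 0.0834).

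Among the 45 genes that turned back at the last step were Zc3hav1, Irf9 and Parp14, all of antiviral defence, and Hspa4l, a chaperone of the HSP110 family. At 20 nmol/kg they were above vehicle by 0.57, 0.48, 0.82 and 0.29 on the log2 scale, and at the last step they fell by 0.52, 0.49, 0.70 and 0.61. Irf9, for example, had a median of 22.4 TPM in vehicle livers, 33.9 TPM at 20 nmol/kg, against 21.4 TPM at 30 nmol/kg. In the 20 nmol/kg group, which both changes share, Irf9 was at 33.4 to 42.1 TPM in libraries 61 to 64. In libraries 65 and 66 it was at 26.1 and 25.2 TPM. The part of this shared group in the turn was not tested. Hspa4l passed in all 12 fits without 1 library, and the other 3 were lost without library 61 or 63 (FDR up to 0.0735).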
